A study of Mus musculus with 17 samples.

Results

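The genes described here encode the proteasome, its activators, its inhibitor and its assembly chaperones. They were chosen by symbol alone: protein-coding mouse genes whose name begins with Psma, Psmb, Psmc, Psmd, Psme, Psmf or Psmg followed by a digit, with the immunoproteasome subunits Psmb8, Psmb9 and Psmb10 set aside. Of 41388 gene IDs counted, 47 met this rule and 46 reached 1 CPM (counts scaled to the library's total) or more in at least 3 of the 17 libraries. The one that did not was Psmb11, a core subunit used in the thymus, with 2 reads in all libraries together, which is at or below 1 read in each. A pair of names needs a remark. Psmc3ip matched the symbol rule but encodes a partner of recombination enzymes in meiosis rather than a proteasome subunit, and Psma8 encodes a testis form of a core subunit.

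The proteasome is the protease that degrades proteins tagged with ubiquitin. Its barrel-shaped core is built of outer rings of alpha subunits (Psma genes), which gate the entrance, and inner rings of beta subunits (Psmb genes), of which Psmb6, Psmb7 and Psmb5 carry the catalytic sites. A cap formed by the Psmc ATPases and the Psmd subunits binds ubiquitin chains, unfolds the substrate and feeds it into the core. The PA28 activator (Psme1 and Psme2, or Psme3 alone) and PA200 (Psme4) can dock on the core in place of the cap. In antigen-presenting cells interferon induces PA28 alpha and beta together with the catalytic subunits of the immunoproteasome, which replace their constitutive counterparts.

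Microglia, the resident macrophages of the brain, had been sorted by flow cytometry from C57BL/6 mice into 5 groups. Neonatal mice at postnatal day 4 to 6 gave 4 libraries of CD11c+ and 4 of CD11c- microglia. Mice with symptomatic experimental autoimmune encephalomyelitis (EAE, grades 3 to 5), females immunized at 7 to 10 weeks of age with a myelin oligodendrocyte glycoprotein peptide in adjuvant and given pertussis toxin, gave 3 libraries of CD11c+ and 3 of CD11c- microglia. Untreated adult mice of 8 to 12 weeks gave 3 libraries, described in the labels both as total microglia and as CD11c negative. The labels name no allele beyond the strain. Each library came from a pool of 10 to 15 mice, so the p-values measure the spread between pools. The paper counts 4 sorts of neonatal and adult microglia, so CD11c+ and CD11c- libraries may share pools. The labels do not tie them together, and the model takes all libraries as independent. The paper gives its neonatal mice as of mixed sex. Age, disease and sex therefore differ together between the neonatal and EAE groups and cannot be told apart.

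Between 5115489 and 10436066 reads were counted per library, and 3 reads correspond to 0.288 to 0.57 CPM. Levels below are CPM scaled by the trimmed mean of M-values (TMM). A gene is said to have risen or fallen only where its adjusted p was 0.01 or less in edgeR's quasi-likelihood test, adjusted by Benjamini and Hochberg's method across 13060 genes. The 8 microglial markers (Aif1, Csf1r, P2ry12 and others) averaged 1 CPM or more in every group, with summed levels of 21600 to 41500 CPM. Neutrophil markers (9 genes) summed to 6420 to 12200 CPM in the EAE CD11c- subset against 41.1 to 68.5 in EAE CD11c+ and 892 to 1780 CPM in adult libraries. They summed to 326 to 1810 CPM in neonatal CD11c- and 9.30 to 11.9 CPM in neonatal CD11c+ libraries. Monocyte markers (5 genes) followed the same order within EAE, with 490 to 792 CPM in the CD11c- subset against 28.9 to 98.1 CPM in the CD11c+ one. Markers of border macrophages (6 genes) summed to 1460 to 3340 CPM in neonatal CD11c+, 898 to 1310 CPM in neonatal CD11c- and 46.7 to 112 CPM in adult and EAE libraries. Mrc1 made up most of the neonatal sums, with means of 1337 CPM in CD11c+ and 965.7 CPM in CD11c-. T cell markers reached 24.6 CPM in neonatal CD11c+ microglia, where Cd3e, Cd3d, Trac and Cd8a were at 0. In RNA of sorted bulk samples, fewer cells of a type and less RNA per cell cannot be told apart.

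Libraries 17 and 1 stood apart from the rest. Library 17 (neonatal CD11c-) and library 1 (EAE CD11c+) had 5.10% and 2.23% of counts from mitochondrial genes, against at most 1.56% in the other 15, and the lowest median correlations with their groups (0.962 and 0.966). Their departures had the same shape. Across the 46 members, the log2 difference of library 17 from the other neonatal CD11c- libraries and that of library 1 from the other EAE CD11c+ libraries correlated with r = 0.784, and across all 13060 genes with r = 0.507. Among all 115 pairs of libraries from different groups, the pairs other than this one had a median of 0.0245 and a highest value of 0.617 over the members, and a highest value of 0.272 over all genes. These are descriptions across genes of the same libraries, which share depth and preparation, and genes are not independent. The most depleted members were Psmb5 (log2 differences of -1.87 in library 17 and -1.41 in library 1) and Psmb4 (-1.23 and -1.61), both core beta subunits, and the chaperone genes Psmg3 (-1.89 and -0.94) and Psmg4 (-1.09 and -1.33). In both libraries 26 members lay below their group, in both 5 lay above, and 15 departed in opposite directions. The counts of members in each comparison and class are therefore also given without these 2 libraries. EAE CD11c+ then holds 2 libraries. The members' own values helped to mark libraries 17 and 1. Counts without them are thus a description of how the calls depend on these libraries and no separate support.

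**Figure D1:**
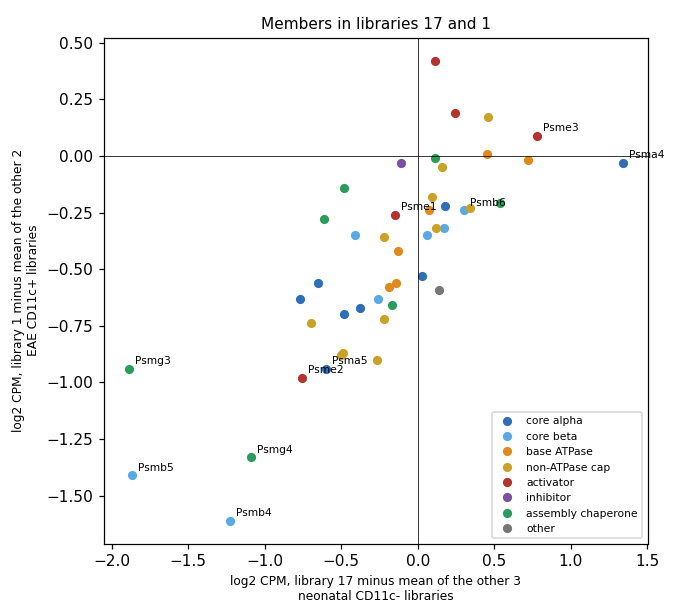
Log2 CPM difference of each of the 46 members in library 17 from the mean of the other 3 neonatal CD11c- libraries (x axis) against that in library 1 from the mean of the other 2 EAE CD11c+ libraries (y axis), with points coloured by class. Psmb5, Psmb4, Psmg3 and Psmg4 lie at the lower left, low in both libraries, while Psma4 was higher in library 17 alone.

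Most proteasome genes varied little over the 5 groups. The highest group mean exceeded the lowest by a median of 1.54 times for the 46 members against 1.73 times for all genes tested, and 78.3% of members stayed under 2-fold against 60.4% of all genes. A test of any difference over the 5 groups passed for 19 of 46 members, while 47.5% of all genes passed. It passed for 32 members and 62% of all genes without libraries 1 and 17. The largest F statistics belonged to Psme1 (adjusted p = 5.43e-11) and Psme2 (1.04e-06), then Psmb1, Psmb6 and Psmb2, all at adjusted p of 2.24e-05 or less.

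Against adult microglia, members rose in all 4 other groups and none fell in the joint edgeR fit. The 4 comparisons share the 3 adult libraries. In EAE CD11c+ microglia 20 of 46 members rose, where 15.8% of all genes rose and 10.6% fell. In neonatal CD11c+ microglia 14 rose, against 18.7% of all genes rising and 14.6% falling. In neonatal CD11c- microglia 9 rose (13.4% of all genes rose and 11.8% fell), and in EAE CD11c- microglia 5 rose (11.2% rose and 4.55% fell). The shares of members that rose were thus 43.5%, 30.4%, 19.6% and 10.9%, the last of them close to the background. At an unadjusted p under 0.05, members were lower in 3 cases in neonatal CD11c-, 1 in neonatal CD11c+ and 0 in either EAE group, and DESeq2's Wald test found 1 that fell in neonatal CD11c+ and 0 in the other 3 comparisons.

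The median log2 fold change of the members was 0.44 in EAE CD11c+, 0.32 in neonatal CD11c+, 0.25 in EAE CD11c- and 0.24 in neonatal CD11c-, while the medians of all genes lay between -0.01 and 0.01. Without libraries 1 and 17 the members that rose numbered 32 in EAE CD11c+ (21% of all genes), 22 in neonatal CD11c+ (24%), 16 in neonatal CD11c- (17.5%) and 16 in EAE CD11c- (16.4%), and Psme2b fell in neonatal CD11c+ (22% of all genes fell). The counts also moved with single adult libraries. Without adult library 23 they were 10 in EAE CD11c+, 6 in neonatal CD11c+, 4 in neonatal CD11c- and 3 in EAE CD11c-. The share of all genes that rose in that fit is not given here. Psmb1, a core beta subunit, and Psmc3ip were the only members that rose in all 4 comparisons, and 22 members rose in none of them. With libraries 1 and 17 left out, Psma1, Psmb5, Psmd2, Psmd13, Psmd14 and Psmg4 rose in all 4 as well.

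**Figure D2:**
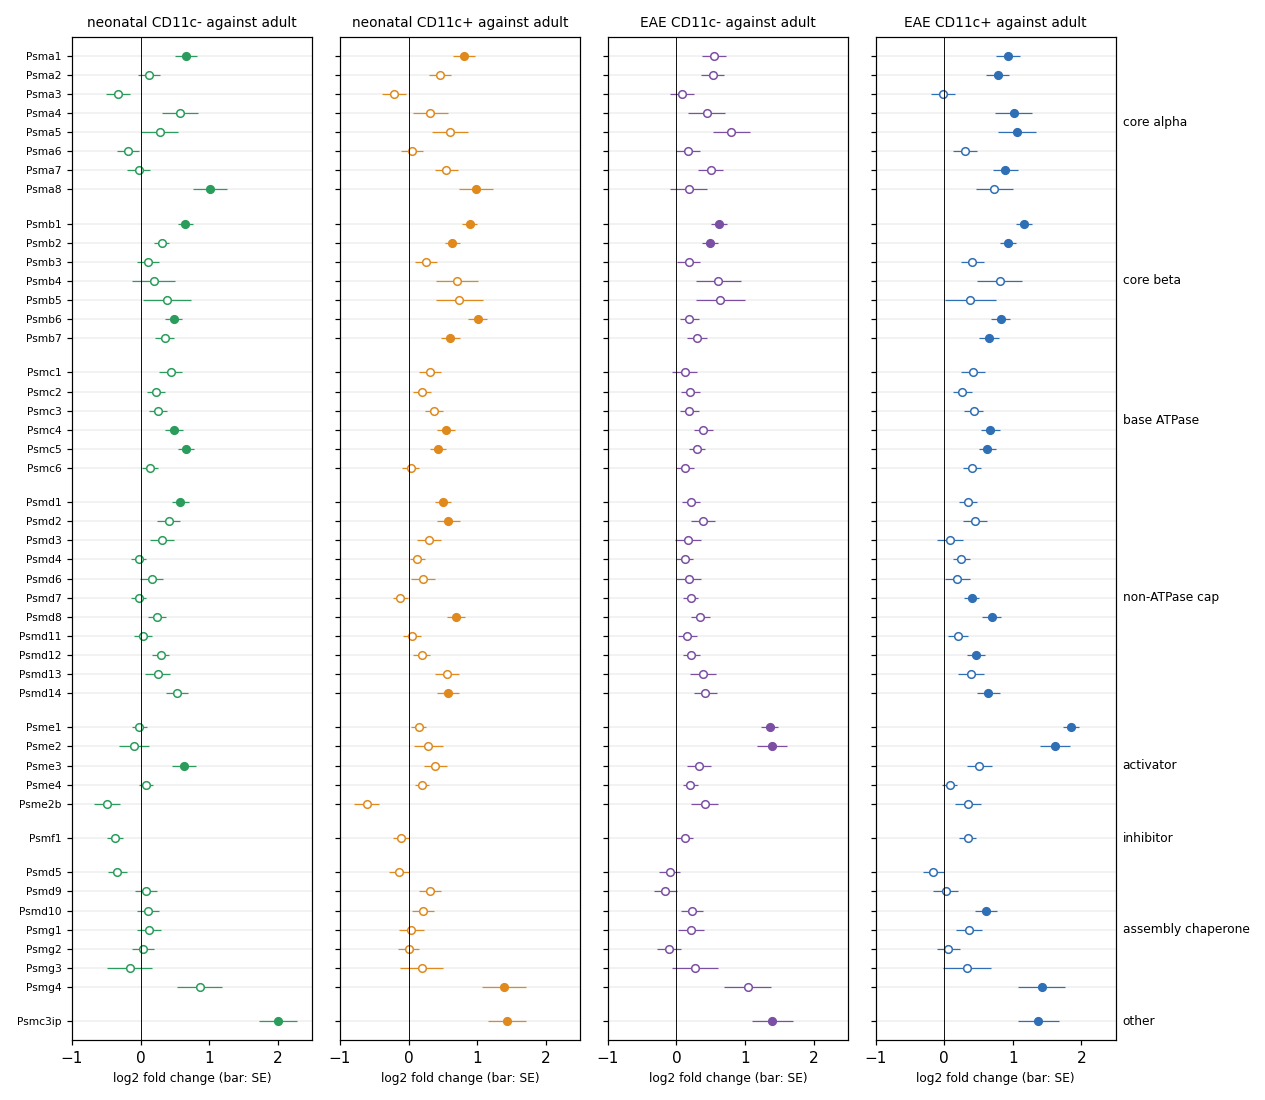
Log2 fold change against adult of the 46 members (rows, grouped by class) in the 4 other groups, with bars for the standard error and filled points where the adjusted p was 0.01 or less. Most core beta subunits lie to the right of 0 in every panel, while Psme1 and Psme2 depart from the adult level in the EAE panels alone.

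The alpha ring was uneven. Of its 7 ubiquitous subunits 5 rose in EAE CD11c+ microglia and 1 in each neonatal group, and none passed in EAE CD11c-. Without libraries 1 and 17, 6 rose in EAE CD11c+, 5 in EAE CD11c- (Psma1, Psma2, Psma4, Psma5 and Psma7), 3 in neonatal CD11c+ and 1 in neonatal CD11c-. Psma1 (alpha 6) measured 71.3, 71.2 and 62.4 CPM in the adult libraries and 93.1, 136 and 161 CPM in EAE CD11c+, with no overlap, and rose by 0.93 ± 0.17 (log2, SE, adjusted p = 0.000239). Its neonatal levels were 88.0, 125, 104 and 116 CPM in CD11c- and 124, 113, 127 and 113 CPM in CD11c+, all above the adult libraries (log2 fold changes of 0.66 ± 0.16 and 0.81 ± 0.16, adjusted p = 0.00294 and 0.000425). The call in CD11c- was lost when any 1 adult library or library 18 was left out. Psma7 (alpha 4), Psma5 (alpha 5), Psma4 (alpha 3) and Psma2 (alpha 2) rose in EAE CD11c+ by 0.89, 1.06, 1.01 and 0.78 on the log2 scale. For Psma5, 50% of the 50-base windows of its transcripts occur in another gene as well, so its counts are uncertain.

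At the other extreme was Psma3 (alpha 7), whose adult libraries lay between 18.0 and 18.6 CPM and whose EAE CD11c+ libraries measured 13.6, 20.0 and 20.2 CPM, a log2 fold change of -0.02 ± 0.18. Psma6 (alpha 1), the most abundant core mRNA per kilobase, was at 59.9 ± 5.23 CPM in adult and 73.6 ± 19.1 CPM in EAE CD11c+ microglia (SD, n = 3 each) and passed in no comparison with adult, save in EAE CD11c+ when libraries 1 and 17 were left out. Psma8, the testis form of alpha 4, was counted at 2.08 to 2.87 CPM in adult and 3.802 to 6.14 CPM in the 8 neonatal libraries and rose by 1.01 ± 0.25 in CD11c- and 0.98 ± 0.25 in CD11c+ (adjusted p = 0.00437 and 0.00367). Its calls were lost when adult library 21 or 23 was left out, among other settings.

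The beta ring held the most constant risers. Psmb1 (beta 6), a structural subunit, measured 49.7, 46.3 and 42.2 CPM in adult libraries, 74.5, 65.6, 74.0 and 75.1 CPM in neonatal CD11c- and 88.5, 81.1, 85.7 and 87.2 CPM in neonatal CD11c+ libraries. In EAE it was at 66.4, 78.1 and 67.2 CPM in CD11c- and 87.1, 107 and 115 CPM in CD11c+ libraries. All 14 libraries lay above all adult ones, and within both the neonates and EAE each CD11c+ library lay above each CD11c- library. Its log2 fold change against adult was 0.65 ± 0.11 and 0.89 ± 0.11 in the neonatal CD11c- and CD11c+ groups and 0.62 ± 0.12 and 1.16 ± 0.12 in the EAE groups (highest adjusted p = 0.000624). Psmb2 (beta 4) rose in 3 of the 4 groups, by 0.64 ± 0.11 in neonatal CD11c+, 0.49 ± 0.12 in EAE CD11c- and 0.93 ± 0.12 in EAE CD11c+, and was at 0.31 ± 0.11 without passing in neonatal CD11c-. Psmb3 (beta 3) varied less, with 15.0 ± 0.80 CPM in adult and 19.9 ± 2.99 CPM in EAE CD11c+ microglia (SD, n = 3 each), and passed nowhere. Psmb4 (beta 7) was at 52.9 to 61.3 CPM in adult, 79.9 to 106 CPM in neonatal CD11c+ and 41.4, 120 and 135 CPM in EAE CD11c+ libraries, the lowest being library 1, and passed in no comparison with adult unless libraries 1 and 17 were left out.

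The 3 constitutive catalytic subunits did not move as one. Psmb6 (beta 1, caspase-like activity) measured 47.8, 48.9 and 40.2 CPM in adult, 74.1, 64.9, 58.1 and 57.6 CPM in neonatal CD11c- and 90.4, 81.8, 80.2 and 115 CPM in neonatal CD11c+ libraries. In EAE it was at 50.4, 51.9 and 53.6 CPM in CD11c- and 71.7, 84.6 and 85.1 CPM in CD11c+ libraries. The CD11c+ libraries were above the CD11c- libraries without overlap at both ages. Psmb6 was the single member that passed in both comparisons of subsets, with 0.53 ± 0.12 in neonates (adjusted p = 0.00674) and 0.63 ± 0.14 in EAE (0.0079). Against adult it rose by 0.48 ± 0.13 in neonatal CD11c-, 1.01 ± 0.14 in neonatal CD11c+ and 0.82 ± 0.14 in EAE CD11c+, while EAE CD11c- was at 0.19 ± 0.14 (adjusted p = 0.389). The call in neonatal CD11c- held in 15 of 26 alternative settings. It was lost without libraries 1 and 17 and without any 1 adult library. The border macrophage markers were likewise higher in neonatal CD11c+ than CD11c- libraries without overlap, but not in EAE (59.2 to 72.8 against 65.0 to 75.7 CPM), and their part in the neonatal difference was not tested.

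Psmb7 (beta 2, trypsin-like) rose in the neonatal and EAE CD11c+ groups by 0.61 ± 0.14 and 0.65 ± 0.15, from 45.9, 42.5 and 37.0 CPM in adult to 57.9 to 70.9 CPM and 47.9 to 79.3 CPM. Psmb5 (beta 5, chymotrypsin-like) passed in no comparison, with adult libraries at 10.7, 8.30 and 8.66 CPM and neonatal CD11c+ libraries at 13.5 to 18.4 CPM. Its spread came from the 2 libraries above: library 17 had 3.8 CPM beside 14.1 to 15.2 CPM in its group, and library 1 had 5.46 CPM beside 14.6 and 15.4 CPM. Without these libraries Psmb5 rose in all 4 comparisons with adult. Of its 50-base windows 54.1% occur in another gene as well, most often Gm3375, so its counts are uncertain.

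The immunoproteasome counterparts moved differently. Summed over Psmb8, Psmb9 and Psmb10 the level was 156 ± 5.57 CPM in adult, 99.98 ± 29.7 CPM in neonatal CD11c-, 125 ± 8.71 CPM in neonatal CD11c+, 380 ± 24.8 CPM in the EAE CD11c- group and 488 ± 155 CPM in the EAE CD11c+ group, and all 3 rose in both EAE groups. The ratio of this sum to Psmb5, Psmb6 and Psmb7 together was 1.51 to 1.75 in adult libraries, 0.460 to 0.927 in neonatal and 2.47 to 3.40 in EAE libraries, with no overlap between the 3 conditions. Within each condition the subsets overlapped in this ratio.

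**Figure D3:**
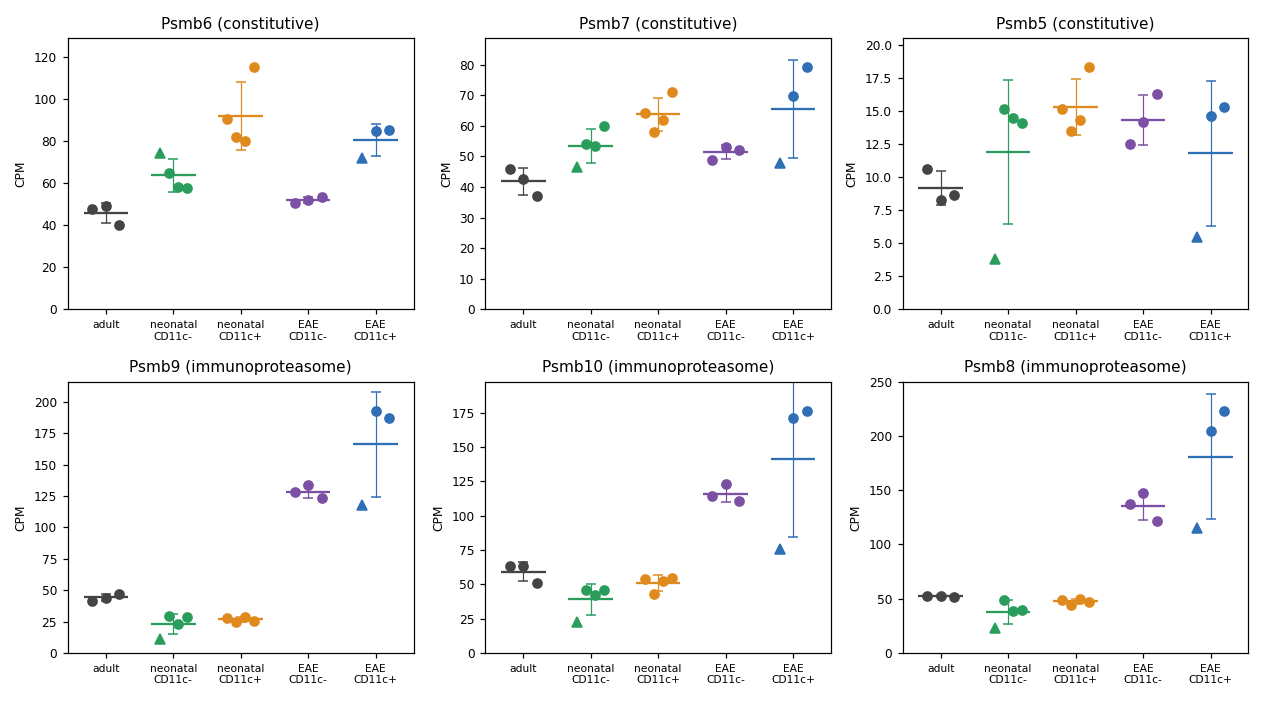
CPM per library of the constitutive catalytic subunits Psmb6, Psmb7 and Psmb5 (upper row) and the immunoproteasome subunits Psmb9, Psmb10 and Psmb8 (lower row) in the 5 groups, with lines for group means, bars for SD and triangles for libraries 1 and 17. Psmb6 separates CD11c+ from CD11c- libraries in neonates and EAE, while the lower row separates EAE from the other groups.

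The start of Psmb5 and of Psmb6 holds the letters TGACNNNGC, the core of the antioxidant response element bound by NRF factors, which are known regulators of proteasome genes. Patterns were searched on both strands of the RefSeq promoter windows (GRCm38.p6), from 250 bases before to 50 after the start, which exist for 39 of the members and 27025 genes. TGACNNNGC was found in 6 of the 39 members (15.4%) and in 14.0% of all genes. Psmb5, Psmb6 and Psmd9 carry the letters in the forward orientation within 50 bases of the start. The sites of the catalytic subunits Psmb5 and Psmb6 are shown, with the match in capitals.
Psmb5, chr14:54618023-54618052, minus strand: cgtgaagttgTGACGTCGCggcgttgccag
Psmb6, chr11:70525338-70525367, plus strand: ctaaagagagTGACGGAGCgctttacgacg
The other members with a match were Psmc6, Psmd12, Psmd9 and Psme4, and CCAAT, read by the factor NF-Y, was found in 35.9% of members and 41.1% of all genes.

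Among the 6 base ATPases, which unfold the substrate, Psmc4 and Psmc5 rose in 3 groups each and the other 4 in none. With libraries 1 and 17 left out, Psmc3 also rose in those 3 groups, Psmc2 and Psmc6 rose in EAE CD11c+, and none of the 6 rose in EAE CD11c-. Psmc5 measured 50.5, 49.4 and 50.8 CPM in adult, 81.7, 94.5, 70.5 and 70.7 CPM in neonatal CD11c- and 69.1, 80.3 and 83.0 CPM in EAE CD11c+ libraries. It rose by 0.66 ± 0.12 in neonatal CD11c- (adjusted p = 0.000213), 0.43 ± 0.12 in neonatal CD11c+ and 0.63 ± 0.12 in EAE CD11c+ (0.000545). Psmc4 rose by 0.49 ± 0.13, 0.55 ± 0.13 and 0.67 ± 0.14 in the same 3 groups. The calls of Psmc4 in neonatal CD11c- and Psmc5 in neonatal CD11c+ held in 17 and 18 of 26 alternative settings. Both were lost without any 1 adult library. Of the adult comparisons, EAE CD11c- gave the smallest differences, 0.30 ± 0.12 for Psmc5 and 0.39 ± 0.14 for Psmc4. Psmc6 lay at 61.7 ± 4.49 CPM in adult and 62.9 ± 4.41 CPM in neonatal CD11c+ microglia (SD, n = 3 and 4).

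The 11 other cap subunits include the scaffolds Psmd1 and Psmd2, the deubiquitinase Psmd14 and the ubiquitin receptor Psmd4. Psmd1 was among the genes that rose in the neonates, from 88.3, 89.1 and 86.0 CPM in adult to 139, 143, 119 and 124 CPM in CD11c- (0.58 ± 0.12, adjusted p = 0.00125) and 131, 127, 128 and 110 CPM in CD11c+ (0.50 ± 0.12, 0.00297). Its EAE levels were 87.7, 112 and 106 CPM in CD11c- and 95.2, 106 and 134 CPM in CD11c+ libraries, with log2 differences of 0.21 ± 0.13 and 0.35 ± 0.13 that did not pass, the second of which passed without libraries 1 and 17. The Psmd1 call in neonatal CD11c+ held in 20 of 26 alternative settings and was lost without any 1 adult library. Psmd8, a lid subunit, rose in the CD11c+ groups by 0.69 ± 0.13 in neonates and 0.69 ± 0.14 in EAE.

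Psmd14 rose in the same 2 groups by 0.58 ± 0.16 and 0.64 ± 0.17, in the latter with overlap, since library 1 lay at 36.8 CPM within the adult 29.8 to 37.3 CPM. These calls held in 18 and 17 of 26 alternative settings and were lost without any 1 adult library. Psmd2 passed in neonatal CD11c+ (0.58 ± 0.17, adjusted p = 0.00913), a call kept in 9 of 26 alternative settings. In EAE CD11c+ the smallest changes past the test were Psmd7 (0.40 ± 0.11, adjusted p = 0.0088) and Psmd12 (0.46 ± 0.13, 0.00851), which held in 9 and 8 of the 26 settings. Psmd3, Psmd4, Psmd6, Psmd11 and Psmd13 passed in no comparison with adult. Psmd4 stayed between 61.4 and 98.5 CPM in all 17 libraries. None of the 11 passed in EAE CD11c-. These non-calls depended on libraries 1 and 17, without which Psmd2, Psmd13 and Psmd14 rose in all 4 comparisons, Psmd3 in both neonatal groups, and Psmd4 and Psmd6 in EAE CD11c+. The 11 then gave 5 that rose in neonatal CD11c-, 6 in neonatal CD11c+, 3 in EAE CD11c- and 9 in EAE CD11c+.

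Summed over the 14 ubiquitous core subunits, the adult libraries were at 551, 525.5 and 481 CPM, and every one of the other 14 libraries was higher. Neonatal CD11c- libraries were at 595, 668, 641 and 673 CPM, neonatal CD11c+ at 809, 727, 779 and 845 CPM, EAE CD11c- at 665, 747 and 699 CPM and EAE CD11c+ at 673, 965 and 1060 CPM, the 673 being library 1. The 17 cap subunits summed to 1101 ± 51.0 CPM in adult, 1359 ± 82.5 and 1402 ± 23.0 CPM in neonatal CD11c- and CD11c+, and 1301 ± 100 and 1447 ± 238 CPM in EAE CD11c- and CD11c+ microglia (SD, n = 3 in the adult and EAE and 4 in the neonatal groups). The core sum in library 1 lay below 2 of the 3 EAE CD11c- libraries, while the other 2 of its group lay above every other library.

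The ratio of cap to core CPM was 2.07, 2.13 and 2.17 in adult and 2.24, 2.19, 1.98 and 2.04 in neonatal CD11c- libraries, which overlap. It was lower in neonatal CD11c+ (1.75, 1.88, 1.82 and 1.66), EAE CD11c- (1.78, 1.82 and 1.94) and EAE CD11c+ libraries (1.75, 1.59 and 1.54), all below every adult library. The median log2 fold change was 0.82 for the core and 0.41 for the cap in EAE CD11c+, 0.60 and 0.32 in neonatal CD11c+, 0.50 and 0.21 in EAE CD11c-, and 0.30 and 0.25 in neonatal CD11c-. Without libraries 1 and 17 it was 0.96 and 0.44 in EAE CD11c+ and 0.32 and 0.25 in neonatal CD11c-. These sums and medians are descriptions with no test, since the classes were set with earlier results of the data known.

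Core genes are shorter than cap genes, with median summed exon lengths of 2335 and 2820 bases. Over all genes the shortest genes (48 to 2655 bases) had median log2 fold changes of 0.17 in EAE CD11c+, 0.09 in neonatal CD11c+ and 0.08 in EAE CD11c- against adult, and the longest (6703 bases or more) -0.09, -0.04 and -0.07. The part of transcript length in the difference between core and cap was not tested.

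**Figure D4:**
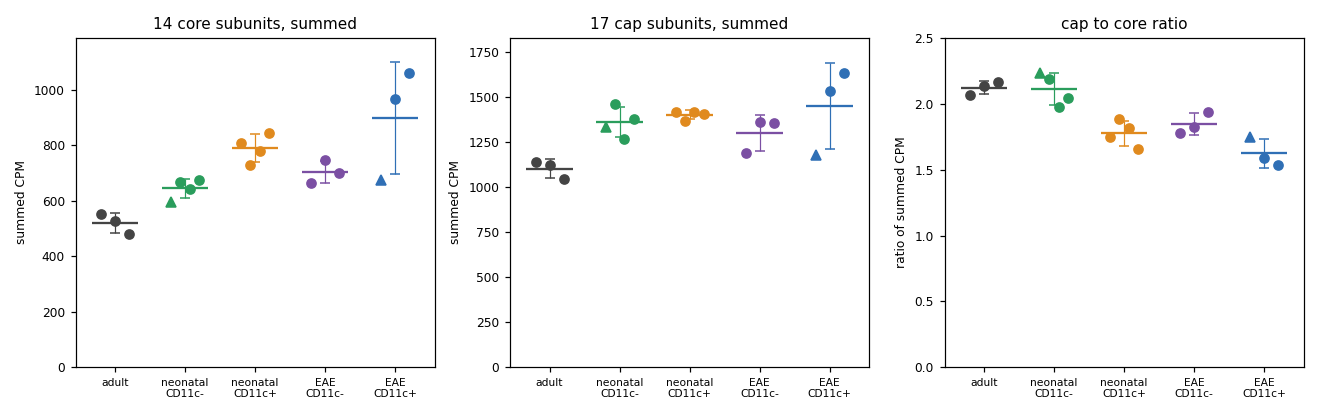
Summed CPM of 14 core and 17 cap subunits and the ratio of the sums (cap to core) in each library of the 5 groups, with lines for group means, bars for SD and triangles for libraries 1 and 17. The core sum is lowest in the 3 adult libraries, and the ratio is lower in neonatal CD11c+ and both EAE groups than in adult.

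Although the subunits are assembled in equal numbers, their mRNAs per kilobase of exon were not equal. In adult microglia the core ranged from 4.70 CPM per kilobase for Psma3 to 48.5 for Psma6, a factor of 10.3, and the cap from 7.22 for Psmd11 to 36.3 for Psmc3. In EAE CD11c+ microglia the same genes bounded the core, at 4.60 and 59.7 CPM per kilobase, and the cap ranged from 8.31 for Psmd11 to 55.6 for Psmc5. The median core subunit rose from 13.2 to 25.5 CPM per kilobase between these groups and the median cap subunit from 20.8 to 27.3, as levels with no test. Lengths are those of all annotated exons joined, so genes with long alternative exons appear lower.

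The activators showed the clearest split between EAE and the other groups. Psme1 (PA28 alpha) was at 80.9, 87.0 and 71.2 CPM in adult, 72.2, 89.0, 76.4 and 76.4 CPM in neonatal CD11c- and 94.6, 90.3, 84.1 and 85.2 CPM in neonatal CD11c+ libraries. In EAE it was at 194, 226.6 and 192 CPM in CD11c- and 254, 304 and 303 CPM in CD11c+ libraries. Every EAE library lay at 2 or more times every other library, and the 2 EAE groups did not overlap.

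Psme1 rose by 1.36 ± 0.12 in EAE CD11c- (adjusted p = 1.24e-07) and 1.85 ± 0.12 in EAE CD11c+ (1.87e-09), and lay at -0.02 ± 0.11 and 0.15 ± 0.11 in the neonatal groups. Between the EAE subsets the difference of 0.49 ± 0.11 missed the threshold (adjusted p = 0.0108). Psme2 (PA28 beta), its partner in the ring, measured 24.4, 22.4 and 23.6 CPM in adult, 56.4, 69.1 and 59.2 CPM in EAE CD11c- and 43.7, 83.5 and 88.9 CPM in EAE CD11c+ libraries, the 43.7 being library 1. It rose by 1.39 ± 0.22 and 1.62 ± 0.22 in the EAE groups (adjusted p = 0.000133 and 1.57e-05), and the neonatal libraries spanned 14.3 to 30.9 CPM. These calls for Psme1 and Psme2 held in all 26 alternative settings. The neutrophil markers given above were at 6420 to 12200 CPM in EAE CD11c-, 41.1 to 68.5 CPM in EAE CD11c+ and 892 to 1780 CPM in adult libraries. Their part in the levels of Psme1 and Psme2 was not tested.

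**Figure D5:**
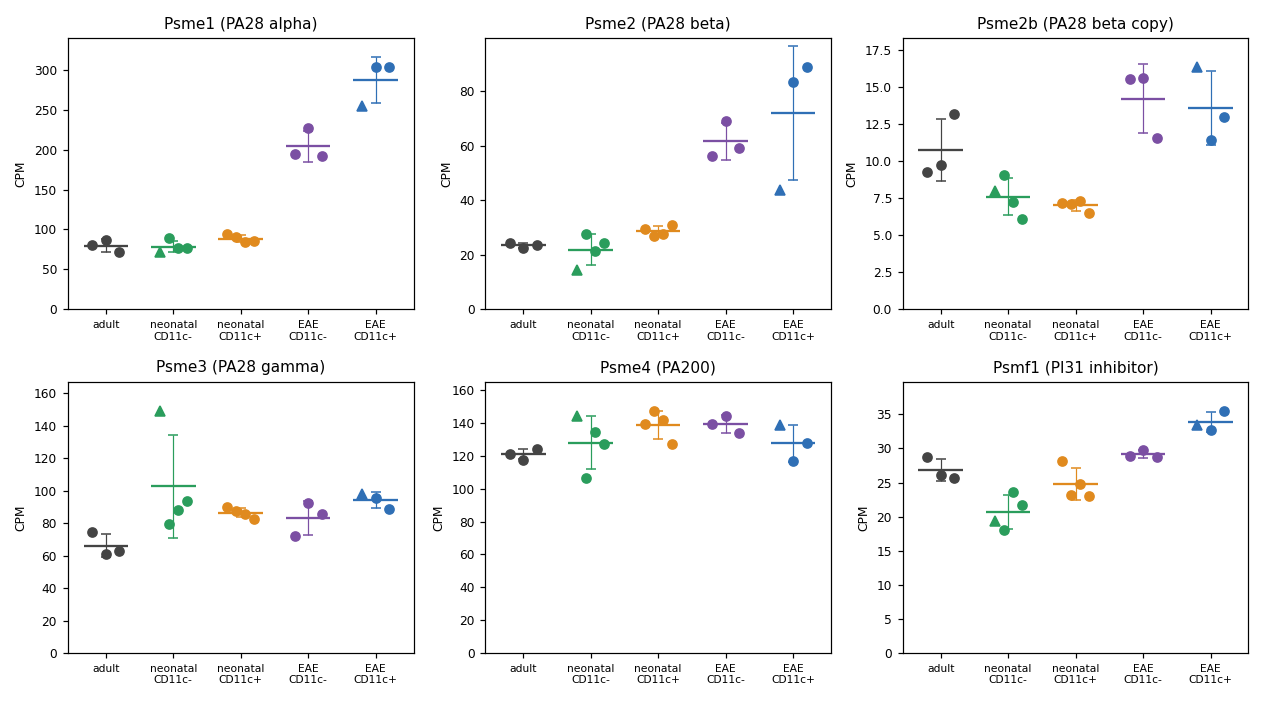
CPM per library of the activator genes Psme1, Psme2, Psme2b, Psme3 and Psme4 and of the inhibitor gene Psmf1 in the 5 groups, with lines for group means, bars for SD and triangles for libraries 1 and 17. Psme1 and Psme2 lie above the adult and neonatal libraries in both EAE groups, while Psme4 stays between 106 and 147.5 CPM throughout.

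Psme3 (PA28 gamma), the nuclear activator, and Psme4 (PA200) did not follow this pattern. Psme3 was at 74.5, 61.2 and 62.8 CPM in adult and 149, 79.6, 88.1 and 93.5 CPM in neonatal CD11c- libraries, and rose there by 0.63 ± 0.17 (adjusted p = 0.00643), the 149 being library 17. Without libraries 1 and 17 its difference there was 0.39 and still passed. The call held in 22 of 26 alternative settings. It was lost without any 1 adult library and with just the groups compared in the fit. In the other 3 groups, taken as neonatal CD11c+, EAE CD11c- and then EAE CD11c+, the log2 differences were 0.39 ± 0.17, 0.33 ± 0.18 and 0.51 ± 0.18 and did not pass, but the first and the last passed without libraries 1 and 17. The ratio of Psme1 and Psme2 together to Psme3 was 1.41 to 1.79 in adult, 0.579 to 1.47 in neonatal and 2.93 to 4.42 in EAE libraries. Psme4 lay between 106 and 147.5 CPM in all 17 libraries and passed nowhere.

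Psme2b, a near copy of Psme2, was counted at 9.30, 9.78 and 13.2 CPM in adult, 6.14 to 9.07 CPM in neonatal and 11.46 to 16.4 CPM in EAE libraries. Since 69.3% of its 50-base windows also occur in other genes, most often Psme2, reads of the pair cannot be fully told apart. Psmf1 (PI31), named for inhibiting the core, was at 26.8 ± 1.67 CPM in adult, 20.7 ± 2.5 CPM in neonatal CD11c- and 33.9 ± 1.47 CPM in EAE CD11c+ microglia (SD, n = 3, 4 and 3). Its differences from adult, -0.37 ± 0.12 and 0.34 ± 0.12, did not pass (adjusted p = 0.0168 and 0.0347).

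A pattern read by interferon-regulated factors, GAAA, any 2 bases and GAAA again on either strand, was found in the start windows of 5 of the 39 members (12.8%) and in 3.99% of all genes, and the 30 bases around each are shown because Psme1 is among them. Capitals mark the match, which reads TTTC first where it lies on the opposite strand of the gene.
Psme1, chr14:55578493-55578522, plus strand: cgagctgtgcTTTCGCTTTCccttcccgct
Psmb3, chr11:97703261-97703290, plus strand: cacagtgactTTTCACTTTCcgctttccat
Psmd4, chr3:95042675-95042704, minus strand: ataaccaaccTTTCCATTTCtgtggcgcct
Psmd9, chr5:123228021-123228050, plus strand: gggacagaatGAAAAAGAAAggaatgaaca
Psmg4, chr13:34162969-34162998, plus strand: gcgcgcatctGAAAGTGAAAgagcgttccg
The Psme1 match begins 9 bases after the annotated start. Of the 5 activators with a window 1 held the pattern, so Psme2, which rose with Psme1, did not. Psmb8 and Psmb9, which rose in both EAE groups, did not hold it either. The part of the pattern in these levels was not tested. Of the other 4 genes Psmg4 rose in both CD11c+ groups, while Psmb3, Psmd4 and Psmd9 passed in no comparison with adult, apart from Psmd4 in EAE CD11c+ without libraries 1 and 17. The related pattern TTCNNNGAA was found in 5.13% of members and 9.55% of all genes. Psmb8, which is not a member, also held TTCNNNGAA in its start window.

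Of the 7 assembly chaperones, which guide the building of core and base, 2 rose against adult, as they did without libraries 1 and 17, Psmg4 then in all 4 groups. Psmg4, a partner of Psmg3 in the assembly of the alpha ring, was at 3.30, 3.51 and 3.10 CPM in adult, 8.46, 6.65, 8.94 and 10.9 CPM in neonatal CD11c+ and 4.23, 10.8 and 11.2 CPM in EAE CD11c+ libraries. It rose by 1.39 ± 0.32 and 1.42 ± 0.34 (adjusted p = 0.00178 and 0.00291). Psmd10 (gankyrin), a chaperone of the base, rose in EAE CD11c+ by 0.61 ± 0.16 (adjusted p = 0.00731), a call kept in 10 of 26 settings. Psmd5, Psmd9, Psmg1, Psmg2 and Psmg3 passed in no comparison with adult, and all chaperones summed to 97.9 ± 2.51 CPM in adult and 112 ± 16.2 CPM in EAE CD11c+ microglia. Psmc3ip, not a proteasome gene by function, rose in all 4 groups, from 1.22, 1.81 and 1.16 CPM to 4.61 to 7.23 CPM in neonatal CD11c-, the largest change there (2.00 ± 0.28, adjusted p = 2.06e-05). Its exons overlap those of Mlx on the other strand over 21.2% of their bases, and use of strand in the counting is not stated.

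Within a condition, the subsets differed in few members. Between CD11c+ and CD11c- microglia 1 of 46 rose in neonates, Psmb6, where 5.58% of all genes rose and 2.2% fell. In EAE 2 rose, Psmb6 and Psmb1 (0.55 ± 0.11, adjusted p = 0.00456), where 1.7% of all genes rose and 2.63% fell. No member fell in either, DESeq2's Wald test found none that fell, and at an unadjusted p under 0.05 members were lower in 2 cases in neonates and 0 in EAE. These counts rest on few libraries. Without libraries 1 and 17 they were 4 in neonates (Psma7, Psmb2, Psmb6 and Psmd8, 8% of all genes) and 11 in EAE (4.23% of all genes), of which 8 were core subunits, with Psmc3, Psme1 and Psme2 besides. When the fit held just the libraries of the 2 subsets, none rose in either.

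Whether the subset effect differed between the neonatal and diseased brain was tested with an interaction term, and edgeR found 0 members that rose and 0 that fell, where 1.45% and 0.107% of all genes did. At an unadjusted p under 0.05 there were 0 and 3 (Psma4, Psmc5 and Psmc6), and DESeq2's Wald test called 0. The smallest adjusted p was that of Psmc5 (0.0619), whose subset difference was -0.23 ± 0.11 in neonates and 0.32 ± 0.12 in EAE.

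Averaging the 2 neonatal groups and setting them against the average of both EAE groups leaves the adult libraries out of the contrast. No member was higher in the neonates and 6 were lower, where 16.8% of all genes were higher and 17.5% lower. The unadjusted p was under 0.05 for 4 higher and 13 lower members, and DESeq2's Wald test called 1 higher. The 6 were Psme1 (-1.54 ± 0.08, adjusted p = 1.25e-11), Psme2 (-1.41 ± 0.15, 2.63e-07), Psme2b (-0.92 ± 0.13, 1.05e-05), Psmf1 (-0.47 ± 0.08, 0.000101), Psma7 (-0.44 ± 0.12, 0.00616) and the lid subunit Psmd7 (-0.39 ± 0.07, 0.000354). Apart from Psma7, each call held in all 26 settings.

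The core and cap subunits otherwise differed little between the neonatal and EAE means, with medians of -0.25 over the core and -0.00 over the cap. Psmb6 was at 0.24 ± 0.09 (adjusted p = 0.045), Psmb7 at 0.00 ± 0.10 with a 95% interval of -0.19 to 0.20, and Psme4 at -0.00 ± 0.07 with an interval of -0.15 to 0.14. Without libraries 1 and 17, 14 members were lower in the neonates (20.6% of all genes), among them 8 core subunits.

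Genes outside the symbol rule that act with the proteasome were followed as a list of 31 tested genes. Against adult, 6 rose and 2 fell in EAE CD11c+, 4 and 1 in neonatal CD11c+, 4 and 2 in neonatal CD11c-, and 2 and 1 in EAE CD11c-, and the medians of the list lay between -0.03 and 0.07. The shares that rose, in that order, were 19.4%, 12.9%, 12.9% and 6.45%, beside 15.8%, 18.7%, 13.4% and 11.2% of all genes. The list gave 8 and 3, 8 and 3, 8 and 6, and 4 and 2 without libraries 1 and 17. Sem1, a small cap subunit whose symbol lies outside the rule, rose in all 4 groups by 0.83 to 1.30 on the log2 scale, and so did Pomp, the maturation factor of the core, by 0.63 to 1.16. Usp14 and Uchl5, the deubiquitinases that bind the cap, rose in both neonatal groups and in EAE CD11c+, Usp14 by 0.83 ± 0.11, 0.92 ± 0.11 and 0.63 ± 0.11. Nfe2l2, which encodes NRF2, rose in EAE CD11c+ (1.01 ± 0.25, adjusted p = 0.0038). It was at 611 CPM in library 1 beside 363 and 382 CPM in that group, and at 215 to 231 CPM in adult libraries. Akirin2, needed for nuclear import of proteasomes, fell in both CD11c+ groups (-0.67 ± 0.13 and -0.59 ± 0.14). The shuttle factor Ubqln2 fell in both EAE groups (-0.55 ± 0.14 and -0.53 ± 0.14).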

How the data were processed

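RNA of sorted microglia was sequenced as 50-base single reads. The authors deposited raw counts per Ensembl gene, made with STAR and HTSeq on GRCm38 (versions 2.3.11 and 0.5.4 in the submitters' processing notes). Use of strand is not given in the sources used here. Rows naming no gene were left out. From these counts, genes with 1 CPM or more in at least 3 libraries were fitted in 1 model of the 5 groups with edgeR 4.0.16 (TMM factors, quasi-likelihood test, Benjamini-Hochberg adjustment over 13060 genes, threshold 0.01). DESeq2's Wald test, other scalings and filters, and leaving out libraries were alternatives. Genes were named by a rule: all activators and the inhibitor, the constitutive catalytic subunits, the 8 members of smallest p over the groups, and the 3 largest and 3 smallest changes per comparison among those past the test. Further members are named to account for each class, after their values were seen. Members, classes and lists were chosen with earlier results of these data known. Counting error sets the floor of 3 counts. The result of 1 gene of the pathway list is not reported here.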

Additional observations from a re-analysis of the deposited data

Results flagged for a closer look

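In the 92 sets of 4 neonatal libraries examined (46 members in each neonatal group), 4 held a library far from the other 3, where chance gives about 1 in 20. All 4 were neonatal CD11c- libraries, and 3 of them were library 17. Psma4 was at 91.78 CPM in library 17 and at 33.05 to 42.02 CPM in the other 3, while Psma7 was lower there, at 31.35 CPM beside 52.19 to 55.59 CPM. Psmb5 was at 3.8 CPM in library 17 beside 14.13 to 15.22 CPM. Psmb1 was at 65.64 CPM in library 18 beside 73.97 to 75.11 CPM in the others. Library 17 had the highest mitochondrial share (5.10%), and its part in these values was not tested.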

How the results depend on the processing

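No call changed direction under any alternative. With libraries 1 and 17 left out, members that rose against adult numbered 16 in neonatal CD11c-, 22 in neonatal CD11c+ (1 fell), 16 in EAE CD11c- and 32 in EAE CD11c+. Between subsets 4 then rose in neonates and 11 in EAE, 14 were lower in the neonatal than in the EAE mean, and 32 differed over the 5 groups. With just the groups compared in the fit, 26 rose and 1 fell in neonatal CD11c+, 17 rose in EAE CD11c-, 12 in EAE CD11c+, and 0 between subsets in neonates and 0 in EAE. At an adjusted p of 0.05, 2 fell in neonatal CD11c- and 1 in neonatal CD11c+, 10 rose in EAE CD11c-, 4 rose between subsets in neonates and 4 in EAE, and 3 were higher and 10 lower in the neonatal mean. DESeq2's Wald test gave 1 that fell in neonatal CD11c+, 3 and 4 that rose between subsets in neonates and EAE, and 1 higher in the neonatal mean. Library size alone gave 1 between subsets in EAE, no filter gave 2 in neonates and 1 in EAE, and a filter of 5 CPM gave 1 that fell in neonatal CD11c+. For alternative settings other than the fit without libraries 1 and 17, the share of all genes called is not given. In those settings a shift of the members and a shift of all genes cannot be told apart. The causes were not tested.

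Leaving out 1 library at a time, those that rose against adult ranged from 4 to 11 in neonatal CD11c-, 6 to 17 in neonatal CD11c+ (0 to 1 fell), 3 to 8 in EAE CD11c- and 10 to 24 in EAE CD11c+. The lowest of these came without adult library 23 (4, 6, 3 and 10), adult library 21 gave 4, 8, 3 and 12, and adult library 22 gave 5, 9 and 12 in the groups other than EAE CD11c-. Neonatal CD11c+ gave 9 without library 13 or 14, and EAE CD11c+ gave 12 and 11 without libraries 2 and 3. Without library 1, 8 rose in EAE CD11c- and 11 were lower in the neonatal mean (range 5 to 11, with 0 to 1 higher). Between subsets the range was 0 to 2 in neonates, with 0 without library 5, 6, 13, 16, 18, 19 or 20 and 2 without library 1 or 17. In EAE it was 0 to 4, with 0 without library 2, 3, 4 or 6, 1 without library 5, 13, 21 or 22, and 4 without library 1 or 17. Members that differed over the 5 groups ranged from 13 to 25. No paired analysis was possible because the labels' library numbers are not shared between groups.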
